A study of Mus musculus with 3 samples.

Results

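The transcriptome of unstimulated adult ventricular cardiomyocytes (ACMs) in culture was described from the 1 vehicle library of a series of 3 RNAseq libraries. The cells came from wild-type mice of 8 to 10 weeks of age, which per the study were male and female, were plated on laminin and were then kept in serum-free M199 medium with insulin-transferrin-selenium, a lipid supplement and 10 mM BDM, an inhibitor of myosin that stops the cells from contracting. They received 0.1% BSA as vehicle for 16 h, and RNA samples were pooled before 1 poly-T-selected library was made. The other 2 libraries, of ACMs treated with IL-6 or with oncostatin M, were not used. With 1 library there are no replicates, so values are given without SD and without tests, and intervals are exact 95% intervals that cover counting error only. Pooled RNA averages over the animals, and fewer cells of a type and less RNA per cell cannot be told apart in it.

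All 56748 genes of the tables were ranked by fpkm (fragments per kilobase of gene, scaled to library size, a level per length) and by their share of the 24939980 counts. Of these genes, 18537 had at least 1 count and 38211 had none. The level of 1 fpkm, which the study used as a minimum for the genes it displayed, was reached by 10178 genes, 17.9% of all genes, and by 9136 of 21970 protein-coding genes, 41.6%. The median over all protein-coding genes, those at 0 included, was 0.237 fpkm. These values are the background against which the count and median of each gene list are read. For a gene at 0 counts, a floor of 3 counts, or 1.20e-05% of the library, was used as the upper limit, and it is not one of these exact intervals. At the median length of a protein-coding gene, 3504 bases, 1 fpkm corresponded to 89 counts.

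Adult ventricular cardiomyocytes are large, mostly non-dividing cells filled with sarcomeres, the contractile units of myosin thick filaments and actin thin filaments, and with mitochondria, which supply most of the ATP for contraction from fatty acids. Calcium released from the sarcoplasmic reticulum starts each contraction, and the calcium pump SERCA2 returns it to the store. Isolation by enzymes and culture expose the cells to stress, to the loss of load and to the loss of neighbouring cells.

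The highest levels belonged to mitochondrially encoded genes, and nuclear protein-coding genes were led by an oxygen carrier gene and sarcomere genes. The first 8 genes by fpkm all lay on the mitochondrial chromosome, from mt-Co1, a catalytic subunit of cytochrome c oxidase, at 34354 fpkm to mt-Nd6, a subunit of complex I, at 6731 fpkm. Mb, which encodes the oxygen carrier myoglobin, was the highest nuclear gene at 3385 fpkm and the ninth of all. Actc1, cardiac α-actin, followed at 3184 fpkm, then the ventricular myosin light chains Myl2 at 2288 fpkm and Myl3 at 2088 fpkm. The list of 25 ended with Slc25a4, the heart and muscle adenine nucleotide carrier, at 1367 fpkm and mt-Co2 at 1305 fpkm. In total, 12 of the 25 genes were mitochondrially encoded, 12 were nuclear protein-coding genes and 1, Rn18s-rs5, was annotated as ribosomal RNA.

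**Figure D1:**
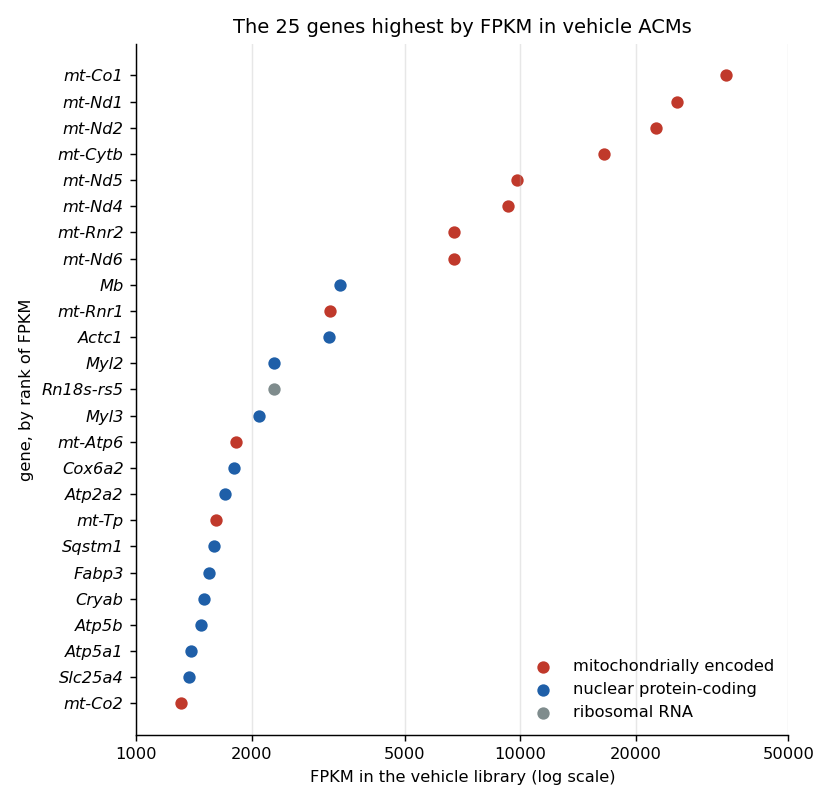
Level in fpkm (log axis) of the 25 highest genes of the vehicle library, in order of rank, with 1 point per gene coloured by class. The mitochondrially encoded genes take the first 8 places, and Mb at 3385 fpkm is the highest nuclear gene.

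Ranked by counts, which favour long genes, 19 of these 25 genes stayed among the first 25. The 6 genes found only in the list by fpkm had a median length of 682.5 bases, and the 6 found only in the list by counts one of 6606 bases. The latter were Myh6, Tpm1, Tnnt2 and Des, which encode α-myosin heavy chain, α-tropomyosin, cardiac troponin T and desmin, with Hspa5, the chaperone of the endoplasmic reticulum, and Lpl, lipoprotein lipase. Atp2a2, which encodes SERCA2, took 262296 counts, the most of any nuclear gene and 1.05% (1.05 to 1.06%) of the library. Myh6 followed with 187212 counts, 0.751% (0.747 to 0.754%).

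The counts were concentrated in few genes. The 10 genes with the most counts held 18.8% of them, the first 100 genes 36.6% and the first 1000 genes 65.5%. Of the counts, 50% lay in 344 genes, or in 634 genes once the mitochondrially encoded genes were left out. The 31 genes at or above 1000 fpkm held 25.2% of the counts, 391 genes from 100 to 1000 fpkm 23.6%, 3295 genes from 10 to 100 fpkm 35.9%, and 6461 genes from 1 to 10 fpkm 14.5%. The remaining 8359 genes with counts, all under 1 fpkm, shared 0.850%.

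**Figure D2:**
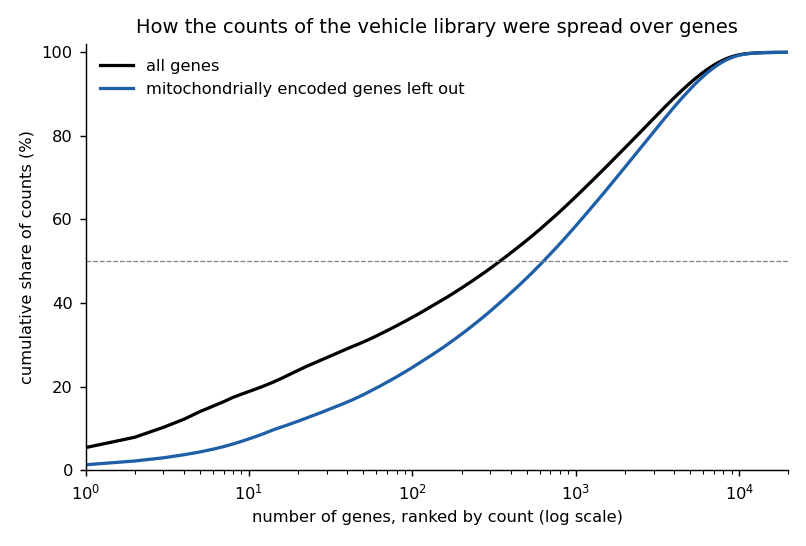
Cumulative share of counts (%) against the number of genes ranked by count (log axis) for all genes (black) and without the mitochondrially encoded genes (blue), with a dashed line at 50%. The line is crossed at 344 genes with and at 634 genes without the mitochondrially encoded genes.

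By annotated biotype, protein-coding genes held 96.96% of the counts (96.951 to 96.965%). Mitochondrial rRNA genes held 1.39%, lncRNA genes 0.489%, processed pseudogenes 0.455%, the rRNA class 0.429% and unprocessed pseudogenes 0.173%. Nearly all counts of the rRNA class, 106937 of 106944, came from Rn18s-rs5, a copy of 18S rRNA. Reads of rRNA remain in any poly-T-selected library to some degree. The miRNA, snRNA, snoRNA, scaRNA and misc_RNA genes, whose short products a poly-T selection does not target, had 664 counts over 5707 genes.

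Among 11288 lncRNA genes, 332 reached 1 fpkm, 2.94% of them, against 41.6% of protein-coding genes. The highest was ENSMUSG00000120364, a gene without a symbol on chromosome 11, with 21546 counts and 220 fpkm (218 to 223 fpkm). It shared no exon bases with another gene of the table, and the nearest gene, Bod1, lay 115525 bases away with 77.3 fpkm. Norad, which binds Pumilio proteins, followed at 67.0 fpkm, then Gm44386 at 47.2 fpkm and Malat1, a nuclear RNA, at 38.0 fpkm. Of Norad's canonical transcript, 99.1% had a copy of at least 97% identity elsewhere in GRCm39, so its value is uncertain. Oip5os1, also known as Cyrano, was at 21.96 fpkm and Neat1 at 5.30 fpkm. Mhrt, a lncRNA antisense to Myh7, had 96 counts and 1.13 fpkm, and 34.2% of its exon bases overlapped other genes, chiefly Myh7 on the opposite strand. Carmn, Meg3 and Miat had 0 counts, which were singled out after their values were seen.

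The 5 marker genes that define the cells were all high. Mb and Actc1 are given above, Atp2a2 was at 1705 fpkm, Tnni3, cardiac troponin I, at 1258 fpkm, and Myh6 at 1100 fpkm. Of the whole list of 18 cardiomyocyte markers, 18 reached 1 fpkm, with a median of 868 fpkm and 5.38% of the counts. The lowest was Ttn, titin, with 18901 counts spread over the longest gene of the list, at 6.37 fpkm. Markers of atrial myocytes were low but present. Nppa, atrial natriuretic peptide, stood at 24.2 fpkm, Myl7, the atrial regulatory light chain, at 11.9 fpkm, Sln, sarcolipin, at 3.54 fpkm, Myl4 at 2.64 fpkm, and Bmp10 had 4 counts. An antisense gene covers 60.4% of the exon bases of Nppa, so its value is uncertain without strand. Of the pacemaker genes, Hcn4 was at 3.08 fpkm with 476 counts and Tbx3 at 0.573 fpkm, and Shox2 and Isl1 had 0 counts.

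Markers of the other cells of the heart were low beside the cardiomyocyte markers, but not all were near 0. None of 9 fibroblast markers reached 1 fpkm, and their values ran from 0.0182 fpkm for Postn to 0.332 fpkm for Dcn, with 6 counts for the collagen gene Col1a1. Of 10 endothelial markers, 3 reached 1 fpkm: Cdh5 with 2.63 fpkm, Cldn5 with 1.79 fpkm and Pecam1 with 1.29 fpkm. The list as a whole held 1070 counts, 0.00429% of the library. Its median of 0.698 fpkm was above the 0.237 fpkm over all protein-coding genes, while 30.0% of it, beside 41.6%, reached 1 fpkm. Of 10 macrophage markers only Csf1r did, at 1.28 fpkm, and the complement genes C1qa, C1qb and C1qc and the leukocyte gene Ptprc had 0 counts. Csf1r had 187 counts and shares exon bases with a gene of 1027 counts on the opposite strand, so its value is uncertain without strand. Acta2, smooth muscle α-actin, was at 12.2 fpkm with 677 counts, while Myh11, smooth muscle myosin, was at 0.135 fpkm and Tagln had 0 counts. Of 8 T and B cell markers, 7 had 0 counts. Red cell genes held 7 counts in all, and the 4 adipocyte genes held 0 counts. The part of these other cells in the values of genes they share with ACMs was not tested.

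Ighg2c, an immunoglobulin heavy chain constant gene, was the exception among lymphocyte genes with 420 counts and 12.5 fpkm. Over all 702 immunoglobulin and T cell receptor genes the library held 430 counts, so 10 lay outside Ighg2c, and Ighm had 6 of those. The B cell genes Cd79a, Cd79b and Ms4a1 were at 0 counts.

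**Figure D3:**
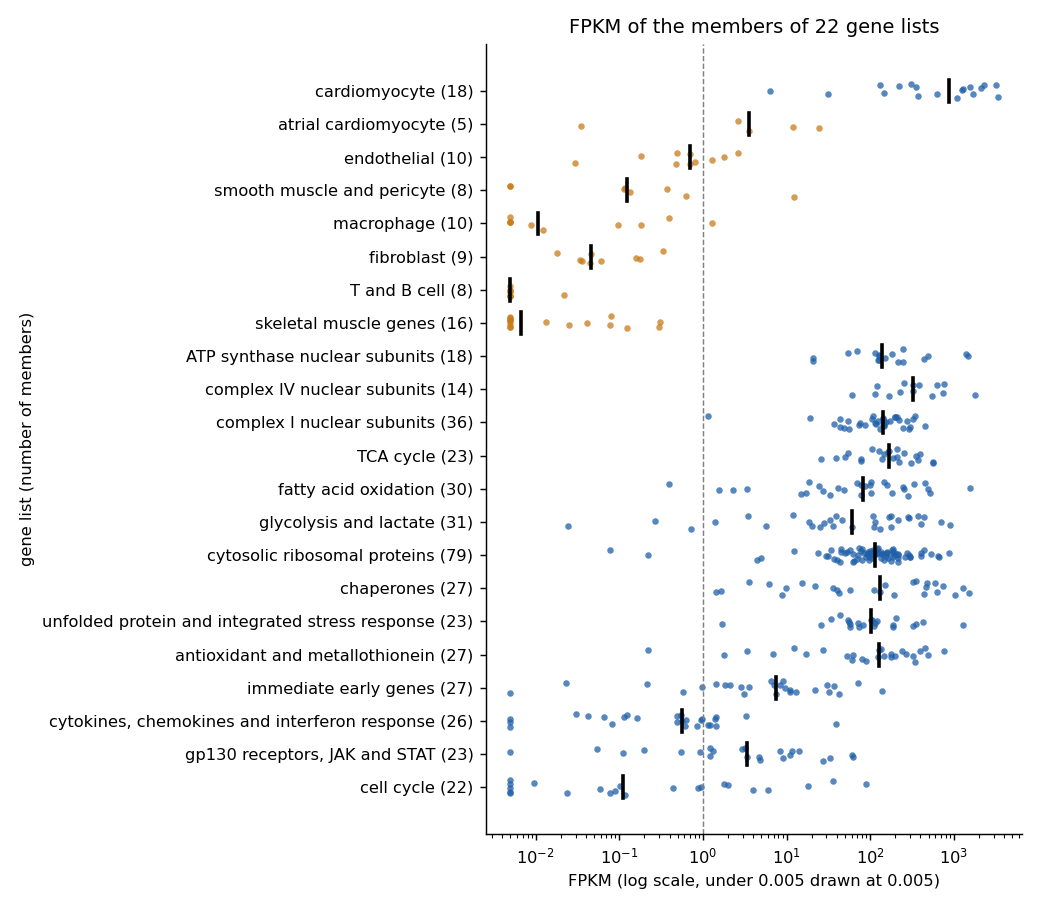
Level in fpkm (log axis) of each member of 22 gene lists in the vehicle library, 1 point per gene, with the list median as a black bar and a dashed line at 1 fpkm; values under 0.005 fpkm are drawn at 0.005. Orange marks lists of atrial and non-cardiomyocyte markers, whose medians lie at or under 3.54 fpkm, while cardiomyocyte markers have a median of 868 fpkm.

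The 3 sarcomere lists together, with 65 genes of the thick filament, the thin filament and the Z-disc, held 1546894 counts, 6.202% (6.193 to 6.212%) of the library, and 55 of them reached 1 fpkm. In the thick filament, Myl2, Myl3 and Myh6 led, followed by Mybpc3, cardiac myosin binding protein C, at 356 fpkm and Myom1, the M-band protein myomesin, at 97.5 fpkm. In the thin filament, Actc1 was followed by Tnnc1, troponin C, at 1290 fpkm, Tnni3, Tpm1 at 912 fpkm and Tnnt2 at 636 fpkm. At the Z-disc, the small heat shock protein gene Cryab led with 1502 fpkm, then Des at 863 fpkm and Ankrd1, a stretch-responsive protein of the titin filament, at 778 fpkm. Actn2, sarcomeric α-actinin, was at 371 fpkm and Tcap, the titin cap, at 308 fpkm.

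Calcium handling was led by Atp2a2, with S100a1, a calcium sensor that binds SERCA2 and the ryanodine receptor, at 530 fpkm. Hrc and Casq2, which buffer calcium in the sarcoplasmic reticulum, stood at 229 and 223 fpkm, and Pln, phospholamban, the inhibitor of SERCA2, at 130 fpkm. Ryr2, the release channel, had 22606 counts on a long gene and 31.0 fpkm. Of 26 genes in the list, 22 reached 1 fpkm. Among 26 ion channel and pump genes, 21 did, among them Atp1b1, the β1 subunit of the sodium pump, at 78.2 fpkm and Fxyd1, phospholemman, which regulates that pump, at 77.4 fpkm. At the intercalated disc, which joins neighbouring myocytes, Dsp, desmoplakin, was at 67.6 fpkm and Gja1, connexin 43, at 37.5 fpkm.

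Many muscle proteins exist as a cardiac form and a sister form used in other muscles, in the atria, in the fetus or in most cells. In 26 of 28 such pairs, the form listed first (mostly the cardiac or muscle form) was higher per length, in 1 the second was higher, and in 1 the interval included 1. The ratio exceeded 10 in 19 pairs and 100 in 11 pairs with its whole interval. For Myh6 over Myh7, the β-myosin heavy chain of the fetal mouse heart, it was 469 (430 to 513), from 1100 and 2.34 fpkm. Tnni3 exceeded Tnni1, the fetal slow skeletal form, 57269 times on 2 counts of Tnni1, with an interval from 15853 to 472901. Tpm1 exceeded Tpm2 1918 times, Myl3 exceeded the atrial Myl4 790 times and Myl2 exceeded the atrial Myl7 192 times. All these ratios depend on annotated lengths that count every exon of any isoform, such as 2044 bases for Myl3 and 4637 for Myl4. The intervals do not cover this. The lead of Actc1 over Acta1, skeletal α-actin, was smaller, 22.1 (21.5 to 22.7), since Acta1 stood at 144 fpkm.

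Metabolic pairs were closer. Cox6a2, the heart and muscle form of a cytochrome c oxidase subunit, was 29.8 times Cox6a1, but Cox8b was 6.58 times Cox8a and Cox7a1 2.19 times Cox7a2. Ldhb, the lactate dehydrogenase subunit typical of heart, was 4.02 times Ldha. The insulin-responsive glucose transporter Slc2a4 was 1.41 times (1.34 to 1.49) the basal transporter Slc2a1. Eef1a2, the elongation factor of muscle and neurons, was 3.51 times Eef1a1. Rpl3l, a ribosomal protein made in striated muscle, was level per length with its ubiquitous sister Rpl3, at 105 and 104 fpkm, a ratio of 1.01 (0.972 to 1.05). Their counts were 4353 and 8345. Of the Rpl3 transcript, 76.0% of 150-base windows also occur elsewhere in the genome.

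The pair with the second form higher was carnitine palmitoyltransferase 1, the enzyme that admits long-chain fatty acids to mitochondria. Cpt1b, the muscle form, had 34 counts and 0.399 fpkm against 656 counts and 3.39 fpkm for the liver form Cpt1a. It was the only 1 of 30 fatty acid oxidation genes under 1 fpkm. Exons of the readthrough gene Gm44502, which had 0 counts, share 68.5% of the exon bases of Cpt1b on the same strand. How such reads were counted is not stated, and the part of this overlap in the low value was not tested.

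**Figure D4:**
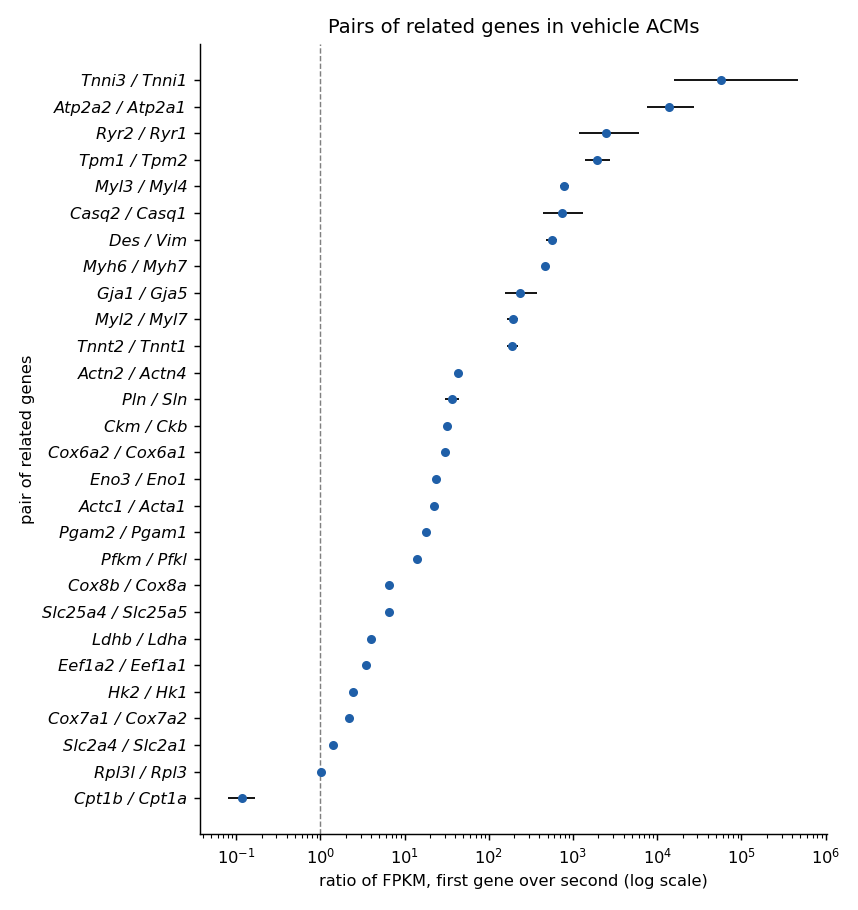
Ratio of fpkm (log axis) of the first over the second gene in 28 pairs of related genes of the vehicle library, with exact 95% counting intervals as black lines and a dashed line at 1. The ratio runs from 0.117 for Cpt1b over Cpt1a to 57269 for Tnni3 over Tnni1, with 26 pairs above 1 by their whole interval.

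Genes on the mitochondrial chromosome held 4330662 counts, 17.4% (17.35 to 17.38%) of the library and 36.9% of the summed fpkm. Its 13 protein-coding genes, all subunits of the respiratory chain or of ATP synthase, are cut from long precursor transcripts, and their levels spanned 9.69 to 34354 fpkm. The lower members were 6 neighbouring genes between mt-Co1 and mt-Nd4. Of these, mt-Atp6 stood at 1820 fpkm, mt-Co2 at 1305 fpkm, mt-Co3 at 1075 fpkm, mt-Nd3 at 255 fpkm, mt-Nd4l at 192 fpkm and mt-Atp8, a gene of 204 bases that overlaps mt-Atp6, at 9.69 fpkm on 50 counts. The other 7 ranged from 6731 to 34354 fpkm.

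The same 6 genes have a near-exact copy in the nuclear genome. When each transcript was cut into windows of 150 bases, the read length of the study, 98.5% to 100% of the windows of these 6 genes occurred unchanged elsewhere in GRCm39. The share was 0% for mt-Nd1, mt-Nd2, mt-Nd5, mt-Nd6 and mt-Cytb, 23.6% for mt-Co1 and 59.2% for mt-Nd4. Across the 13 genes, Spearman's rho of fpkm and this share was -0.78, a description of genes that share a chromosome and a library. The copy spans 4663 bases on chromosome 1 (24650616 to 24655278), where the annotation places 7 unprocessed pseudogenes. These held 38095 counts, led by Gm28661 at 672 fpkm, Gm10925 at 479 fpkm and Gm29216 at 400 fpkm. The outermost of them, Gm29216 and Gm28439, held 4981 and 4342 of these counts. By their order and length they lie where parts of mt-Co1 and mt-Nd4 fall, which are not among the 6 genes. Reads of identical stretches cannot be assigned to one place. The part of this copy in the low values was not tested. The stretches below show why these values are uncertain. The first 100 bases of mt-Co2 (chrM:7013-7112, plus strand, coding) occur unchanged once more, in the copy on chromosome 1. The stretch of mt-Co1 (chrM:5762-5861, plus strand, coding) has its nearest copy at chr2:22479126-22479225, minus strand, and capitals mark the 5 of 100 bases that differ between them.
mt-Co2: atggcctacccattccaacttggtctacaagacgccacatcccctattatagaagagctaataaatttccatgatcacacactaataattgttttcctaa
mt-Co1: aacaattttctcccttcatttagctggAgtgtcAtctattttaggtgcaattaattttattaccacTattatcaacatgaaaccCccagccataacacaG
mt-Co1 copy on chromosome 2: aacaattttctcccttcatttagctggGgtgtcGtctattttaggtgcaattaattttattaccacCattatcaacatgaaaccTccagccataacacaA
The mt-Co2 stretch, chosen for its exact copy, holds no base that separates the gene from its copy. The mt-Co1 stretch, which holds 5, was chosen as the stretch that differs most from its nearest copy. The contrast between them was therefore set by the choice. Since 23.6% of the windows of mt-Co1 occur unchanged elsewhere, other stretches of this gene hold no such base either.

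**Figure D5:**
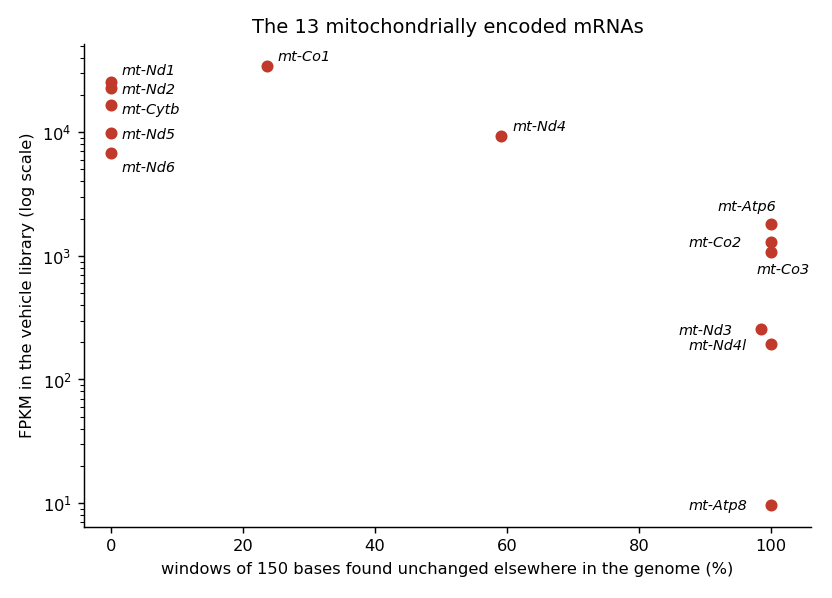
Level in fpkm (log axis) of the 13 mitochondrially encoded mRNAs against the share (%) of their 150-base windows that occur unchanged elsewhere in the genome, 1 point per gene. The 6 genes at 98.5% or more lie at or under 1820 fpkm, and the 7 others at or above 6731 fpkm.

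The 2 mitochondrial rRNA genes stood at 6741 fpkm for mt-Rnr2 and 3201 fpkm for mt-Rnr1. Of 22 mitochondrial tRNA genes, which are 59 to 75 bases long and so shorter than a read, 20 had 0 counts and mt-Ts1 had 1. The exception was mt-Tp, the tRNA for proline and the last gene annotated on the chromosome, with 2740 counts. On its 67 bases these gave 1617 fpkm and the 18th rank, while by counts it ranked 1556th.

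Nuclear subunits of the respiratory chain and of ATP synthase were high throughout. All 82 reached 1 fpkm and 81 reached 10 fpkm, with a median of 178 fpkm and 4.08% of the counts. The catalytic subunits of ATP synthase led, Atp5b at 1473 fpkm and Atp5a1 at 1388 fpkm. In complex IV, Cox6a2 stood at 1793 fpkm, Cox8b at 756 fpkm and Cox4i1 at 742 fpkm. Complex III was led by Uqcrfs1, the Rieske iron-sulfur protein, at 510 fpkm and complex II by Sdha at 398 fpkm. The lowest was Ndufb2, a complex I subunit, with 165 counts and 1.16 fpkm, on an annotated length that counts every exon of any isoform.

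Fuel genes followed the same order of magnitude. All 23 genes of the tricarboxylic acid cycle reached 1 fpkm, with a median of 166 fpkm, among them Idh2, mitochondrial isocitrate dehydrogenase, at 563 fpkm and Mdh2, malate dehydrogenase, at 378 fpkm. Of 30 fatty acid genes, 29 did, with a median of 82.6 fpkm. They were led by Fabp3, the cytosolic fatty acid binding protein, at 1544 fpkm, then Acaa2, a thiolase, at 519 fpkm, Lpl at 491 fpkm, Acadl at 447 fpkm and the uptake protein gene Cd36 at 332 fpkm. In glycolysis and lactate metabolism, 28 of 31 reached 1 fpkm with a median of 60.8 fpkm, led by Aldoa, aldolase A, at 902 fpkm, Ldhb at 710 fpkm and Eno3, muscle enolase, at 436 fpkm. Energy buffering and transfer showed Ckmt2, mitochondrial creatine kinase, at 989 fpkm and Ckm, its cytosolic muscle form, at 221 fpkm. Among regulators of mitochondria, Mfn2, a fusion protein of the outer membrane, stood at 140 fpkm, Esrra at 26.7 fpkm and Ppargc1a, PGC-1α, at 6.21 fpkm. Ppargc1a was named after its value was seen.

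Gapdh, a glycolytic enzyme often used as a reference gene, was among the lowest of the 31 glycolysis and lactate genes with 147 counts and 1.41 fpkm (1.19 to 1.65 fpkm), with 3 genes below it, and it too was named after its value was seen. Of its transcript, 84.5% of 150-base windows occur unchanged elsewhere in the genome, and 41.7% of its exon bases overlap Iffo1 on the opposite strand. The stretch below is the part of its coding sequence with the most exact copies among those searched, 29 places outside the gene. The search passed over stretches that also had an exact copy on a chromosome it left out. It joins 2 exons on the minus strand within chr6:125139268-125139451.
Gapdh: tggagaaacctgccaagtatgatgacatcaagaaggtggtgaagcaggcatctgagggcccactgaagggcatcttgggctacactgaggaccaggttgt
Of the 29 places, 19 are annotated pseudogenes, which together held 1612 counts, 990 of them in Gm5559. That is more than the 147 counts of the gene itself. How much Gapdh mRNA these cells held is therefore not given by its row, and the part of the copies in the low value was not tested.

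The same reservation holds for ribosomal proteins, which build the ribosome together with rRNA. Of 79 genes, 77 reached 1 fpkm, with a median of 114 fpkm and quartiles of 66.2 and 187 fpkm. Rplp1, Rplp0, Rps3a1, Rps2 and Rpl4 were the highest, from 867 to 442 fpkm. The lowest were Rpl24 with 2 counts and Rps10 with 13 counts, at 0.0768 and 0.222 fpkm, named after their values were seen. For Rpl24, 76.7% of windows had an exact copy elsewhere and 56.0% of exon bases overlapped other genes, chiefly Gm28037 on the same strand. For Rps10 these shares were 38.1% and 23.9%. Over all 79 genes, the share of windows with exact copies and fpkm were only weakly related (Spearman's rho -0.11), and Rpl3, with 76.0%, stood at 104 fpkm. The part of copies and overlaps in these values was not tested.

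Pseudogenes of all kinds held 172058 counts, 0.690% of the library, in 1833 of 13649 genes. Besides the copies on chromosome 1, the processed pseudogenes Gm10039 at 466 fpkm, Mpc1-ps at 388 fpkm and Hadhb-ps at 291 fpkm stood out, the last with 10507 counts. Its parent gene Hadhb, a subunit of the mitochondrial trifunctional protein of fatty acid oxidation, had 41693 counts and 250 fpkm. In Hadhb-ps, 100% of the sequence has a copy of at least 97% identity elsewhere, but only 4.69% of 150-base windows are exact copies.

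Genes of protein synthesis and folding were among the highest outside muscle and mitochondria. All 18 translation factor genes reached 1 fpkm, led by Eef1a2 at 831 fpkm, the elongation factor gene Eef2 at 761 fpkm and Tpt1 at 481 fpkm. All 27 chaperone genes did, with 2.57% of the counts. Cryab and Hspb7, small heat shock proteins of muscle, stood at 1502 and 1040 fpkm, Hsp90ab1 at 739 fpkm and Calr, calreticulin, a calcium-binding chaperone of the endoplasmic reticulum, at 632 fpkm. The inducible Hsp70 genes Hspa1a and Hspa1b, in contrast, were at 1.64 and 1.42 fpkm. They are close copies of each other, with 38.1% and 40.5% of 150-base windows found elsewhere, so that their values are uncertain, and they were named after their values were seen. Sqstm1, the autophagy receptor p62, was the highest gene of the degradation list and the 19th of all genes at 1590 fpkm. Ubb, a ubiquitin gene, followed at 549 fpkm.

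Genes of the unfolded protein and integrated stress response, which cells switch on when proteins misfold in the endoplasmic reticulum or amino acids run short, were high. All 23 reached 1 fpkm, with a median of 103 fpkm and 1.25% of the counts, against 41.6% of protein-coding genes at this level. Hspa5, the main chaperone and sensor partner of the endoplasmic reticulum, held 136682 counts, the 12th most of all genes, and stood at 1278 fpkm. Herpud1, a component of the degradation machinery of that membrane, followed at 426 fpkm. Atf4, the transcription factor of the integrated stress response, was at 353 fpkm, Gdf15, a secreted stress factor, at 325 fpkm and Dnajb9, a co-chaperone of Hspa5, at 205 fpkm. Atf4 was also the highest of 1525 genes that the tables assign to a transcription factor family, of which 623 reached 1 fpkm. Its family, the bZIP factors, reached 1 fpkm in 37 of 53 genes and held 0.526% of the counts. Levels in freshly isolated or uncultured cells were not analysed here.

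Promoters of these genes are known for the ER stress element, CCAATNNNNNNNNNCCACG, to which factors including ATF6 bind. The element, in exactly these letters on either strand, was found in 27 of 21765 protein-coding promoters (0.124%), taken from 250 bases before to 50 bases after the start of the canonical transcript on GRCm39. Among 23 promoters of the stress response list 3 held it, and among 27 chaperone promoters 4, with Hspa5 in both lists. The letters at its ends are common on their own, CCAAT in 39.8% and CCACG in 35.7% of all promoters. None of the 18 cardiomyocyte marker promoters held the element, which at 0.124% of all promoters does not set this list apart. The motif was chosen after the levels were seen, a match is not a binding site, and no match says only that these letters are absent from this window. The 6 genes of the lists with a match were Hspa5, Calr, Hsp90b1 at 475 fpkm, Canx at 152 fpkm, Creld2 at 120 fpkm and Pdia6 at 112 fpkm. The promoters of the 3 highest are shown with the element in capitals, at chr2:34661854-34662153 on the plus strand for Hspa5, chr8:85573618-85573917 on the minus strand for Calr, and chr10:86541329-86541628 on the minus strand for Hsp90b1, which holds it 2 times.
Hspa5: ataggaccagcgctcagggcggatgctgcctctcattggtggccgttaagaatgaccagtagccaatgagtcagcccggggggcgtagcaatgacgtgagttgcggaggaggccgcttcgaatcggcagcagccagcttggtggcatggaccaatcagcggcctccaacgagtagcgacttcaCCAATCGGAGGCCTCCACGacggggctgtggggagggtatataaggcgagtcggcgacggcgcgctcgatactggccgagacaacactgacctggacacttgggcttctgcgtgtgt
Calr: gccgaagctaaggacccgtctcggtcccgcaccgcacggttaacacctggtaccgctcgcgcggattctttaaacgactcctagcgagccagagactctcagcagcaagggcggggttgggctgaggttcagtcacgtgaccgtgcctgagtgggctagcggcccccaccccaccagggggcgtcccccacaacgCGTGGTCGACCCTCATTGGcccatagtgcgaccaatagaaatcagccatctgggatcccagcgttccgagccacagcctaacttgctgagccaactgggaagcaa
Hsp90b1: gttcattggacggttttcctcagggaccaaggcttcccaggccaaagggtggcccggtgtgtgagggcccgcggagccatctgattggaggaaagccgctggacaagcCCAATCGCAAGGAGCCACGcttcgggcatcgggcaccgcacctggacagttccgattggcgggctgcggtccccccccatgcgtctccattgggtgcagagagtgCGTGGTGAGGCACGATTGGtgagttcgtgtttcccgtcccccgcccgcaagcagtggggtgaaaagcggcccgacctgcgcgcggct
The match began 67 bases before the start in Hspa5 and 55 bases before it in Calr, where it lay on the opposite strand.

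Oxidative stress genes were similarly placed. Of 27 antioxidant and metallothionein genes, 26 reached 1 fpkm, with a median of 129 fpkm. Fth1, the ferritin heavy chain that stores iron, stood at 755 fpkm, Hmox1, heme oxygenase 1, at 493 fpkm, Srxn1, sulfiredoxin, at 455 fpkm, Mt1, metallothionein 1, at 393 fpkm and Gpx4, which reduces lipid peroxides, at 348 fpkm. Gpx1 had 123 counts and 3.37 fpkm, and 85.3% of its exon bases overlapped a gene on the opposite strand.

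Genes of load and dedifferentiation differed widely among themselves. Ankrd1 was at 778 fpkm, Flnc, filamin C, at 206 fpkm, Nppb, B-type natriuretic peptide, at 162 fpkm and Acta1 at 144 fpkm, whereas Myh7 stood at 2.34 fpkm, Vim, vimentin, at 1.55 fpkm and Tnni1 had 2 counts. In the immediate early list 22 of 27 reached 1 fpkm, led by Atf3 at 139 fpkm, Ier3 at 71.2 fpkm and Junb at 42.3 fpkm, while the median was 7.47 fpkm. Hypoxia genes had a median of 18.6 fpkm, led by Egln1, an oxygen-sensing prolyl hydroxylase, at 103 fpkm. Of the clock genes, Nfil3 at 36.5 fpkm and Nr1d2 at 30.7 fpkm were the highest of 19.

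Of 26 cytokine and interferon genes, 7 reached 1 fpkm, 26.9% beside 41.6% of protein-coding genes, and their median of 0.560 fpkm stood beside 0.237 fpkm over all protein-coding genes, so these values do not set the list apart. Csf1, macrophage colony-stimulating factor, was the highest with 5148 counts and 38.5 fpkm, followed by Il15 at 3.27 fpkm and Irf1 at 1.45 fpkm. The gp130 pathway that the study stimulated in other cultures was present throughout. Il6st, which encodes gp130, the shared receptor chain, stood at 61.8 fpkm (60.9 to 62.7 fpkm), Osmr at 3.34 fpkm and Lifr at 3.17 fpkm, and Il6ra, the IL-6 binding chain, at 0.110 fpkm with 24 counts. Of the kinases, Jak1 stood at 27.2 fpkm, Jak2 at 8.37 fpkm and Tyk2 at 4.82 fpkm, and their counting intervals did not overlap. Stat3, the main effector of gp130, lay between 32.3 and 33.7 fpkm by its counting interval.

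Cardiac transcription factors were expressed at moderate levels, 18 of 21 at or above 1 fpkm with a median of 4.95 fpkm. Apart from Ankrd1, which also acts in the nucleus, Hopx was at 45.0 fpkm, Nkx2-5 at 39.3 fpkm, Srf at 36.8 fpkm and Mef2d at 35.8 fpkm. Receptors for hormones and transmitters were lower still, with a median of 1.93 fpkm. They were led by Ghr, the growth hormone receptor, at 16.2 fpkm, Chrm2, the muscarinic receptor of the vagus nerve, at 11.9 fpkm and Insr at 11.7 fpkm. Of the receptors that bind laminin and the surrounding matrix, Itgb1, integrin β1, was highest at 122 fpkm, with Itga7, its laminin-binding partner in muscle, at 55.6 fpkm and Dag1, dystroglycan, at 54.8 fpkm.

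Of 22 cell cycle genes, 7 reached 1 fpkm, 31.8% beside 41.6% of protein-coding genes, and 15 did not. Their median was 0.110 fpkm, beside 0.237 fpkm over all protein-coding genes, and the count does not set the list apart. Cdkn1a, the inhibitor p21, was highest at 88.2 fpkm, followed by Ccnd2, cyclin D2, at 36.2 fpkm and Pcna, a clamp of DNA replication, at 18.2 fpkm, while the inhibitor gene Cdkn2a had 0 counts. The proliferation marker Mki67 had 6 counts and the mitotic kinase genes Cdk1, Plk1, Aurkb and Bub1 had 0 counts, values that were singled out after they were seen. Other genes of the list lay above these, such as Ccne1 at 1.98 fpkm, Mcm2 at 0.938 fpkm and Aurka at 0.875 fpkm.

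Genes of other tissues gave the lower end of the scale. None of 16 listed skeletal muscle genes and none of 12 liver and brain genes reached 1 fpkm, and of 1547 olfactory and vomeronasal receptor genes none did, with 1519 at 0 counts. Acta1 and Tnnt1, skeletal forms outside the skeletal muscle list, were at 144 and 3.35 fpkm. Histone genes of the replication-dependent class, whose main transcripts lack a poly-A tail, had a median of 0.213 fpkm, but H1f2 stood at 160 fpkm and H2bc4 at 87.6 fpkm. Both Y-linked genes, such as Ddx3y with 1758 counts and Eif2s3y with 1015 counts, and Xist, the RNA of the inactive X chromosome, with 753 counts, were present in the pool.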

How the data were processed

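RNA from ACMs was poly-T-selected and sequenced as paired reads of 150 bases. The submitters' processing notes name fastp, HISAT2 2.2.1, featureCounts 2.0.6 and edgeR 4.0.16, with build mm39. The paper names other versions of featureCounts and edgeR. The annotation release, the strand setting and the handling of reads that map to several places are not given in the sources used here. The authors deposited raw counts as whole numbers for each gene, and FPKM values. Each deposited FPKM equalled the count divided by gene length and by 1 constant, 25296726, which is 356746 above the library's 24939980 counts, so the FPKM adds no information on depth.

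From the vehicle column alone, genes were ranked by FPKM and by counts. A share of counts has an exact Clopper-Pearson 95% interval, and so does a ratio of 2 genes, from both counts given their sum and scaled by gene length. An FPKM interval is the exact Poisson interval of the count. For a count of 0, a floor of 3 counts stands in place of the interval. Intervals were tested on simulated data. Gene lists (52) and isoform pairs (28) were chosen by function with earlier results of these data known. The rule for named genes took the 25 highest by FPKM and by counts, the 5 highest of each biotype with at least 100 counts, the 5 highest of each list and every member of lists of at most 10 genes, both genes of each pair, and genes of the gp130 pathway. Some genes that this rule takes are not reported here. Other genes, such as low members of longer lists, genes shown for a motif and neighbouring genes, were named after their values were seen. Where a symbol had several rows, the protein-coding row was used.

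Of the 56748 genes, 56017 were found in GENCODE M39 on GRCm39, 33753 of them with the same start and end. This annotation gave exon overlaps, canonical transcripts and promoters. Transcripts of named genes were aligned to GRCm39 with BLAST+ 2.17.0+ to find copies of at least 97% identity and 100 bases, and exact windows of 150 bases. Python 3.11.15, pandas 2.3.3 and scipy 1.17.1 were used. The cytokine columns were not used. Columns of the tables that describe genes (biotype, transcription factor family, length) are the authors' own.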

Additional observations from a re-analysis of the deposited data

How the results depend on the processing

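No paired analysis was possible because each condition has 1 library, and no library could be left out. The number of genes at or above 1 FPKM, 10178, was within 1.5 times that value at 0.5 FPKM (11778), at 10 counts (13890), at 1 TPM (12356) and with at least 10 counts required as well (10085), and fell to 5790 at 5 FPKM. Shares depend on what is counted. Without mitochondrially encoded genes, the protein-coding share was 98.0%, the share of the 100 highest genes 24.6% and the sarcomere share 7.51%. As shares of summed FPKM, which weigh short genes more, these were 93.0%, 54.7% and 5.11%, and the mitochondrially encoded share was 36.9%. As a share of counts among protein-coding genes only, the mitochondrially encoded share was 16.5%. Of the 25 genes highest by FPKM, 19 stayed with a ranking by counts, 24 among genes of at least 300 bases, 21 among protein-coding genes and 13 without mitochondrially encoded genes, since 12 of the 25 are such genes. Counting intervals are narrow at this depth and say nothing about spread between cultures or animals, which 1 library of pooled RNA cannot give. Values of genes with near-identical copies or overlapping exons are the least certain.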
